A study of Mus musculus with 8 samples.

Results

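The comparison described here is that of 2 mouse organoid lines labelled as colon cancer, CTO19 and apsMC706, in medium with EGF. Its members are the 4 libraries labelled EM at 3 days, 2 of each line, of 8 libraries in the series. Organoids are self-organising cultures of epithelial cells in a gel. Both lines came from C57BL/6 mice and are labelled APS, with Apc, Trp53 and Smad4 knocked out by CRISPR, so all groups carry the same 3 disrupted genes. CTO19 is labelled male and apsMC706 female. EM held B27, noggin (a BMP antagonist), galunisertib (an inhibitor of the TGF-beta receptor) and EGF. The other 4 libraries (noEGF, both lines after 7 days without EGF) were used here for the estimate of the spread and for a repeat of the line difference. Line goes with labelled sex and with whatever else sets the 2 derivations apart, so these cannot be told apart, and genes on chromosomes X and Y were left out. The design text treats the lines as 2 biological replicates of 1 genotype, and the comparison asks how alike they were before EGF was withdrawn. It does not say how many clones or animals each line came from. The labels do not say that the 2 replicates of a line were separate cultures, so p-values measure the spread between these libraries.

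The colon is lined by a simple columnar epithelium. Its stem cells at the crypt base depend on Wnt signals, and its absorptive, goblet and enteroendocrine cells are kept in their lineage by factors such as Cdx2 and Hnf4a. Hox genes of the posterior groups mark its position along the gut. Stratified squamous epithelia such as skin, oesophagus and anal canal are built on a basal layer that needs the p53 relative p63 (Trp63), holds the keratin pair Krt5 and Krt14, and is anchored to its basement membrane by hemidesmosomes. Above it, cells switch keratins and build a cornified envelope of cross-linked proteins.

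In EM, CTO19 held RNA of basal and squamous epithelium at high levels, and apsMC706 held RNA of the hindgut and of intestinal epithelium. Of 16148 autosomal, scaffold or mitochondrial genes tested, 6065 were higher in CTO19 (37.6% of those tested) and 5507 were lower (34.1%). At least 2-fold differences were called for 3152 genes higher (19.5%) and 1502 lower (9.3%), and at least 8-fold differences for 1479 and 503. The quartiles of the log2 fold change (CTO19 minus apsMC706) over all tested genes were -0.37, 0.02 and 0.71. All calls are from edgeR quasi-likelihood tests at an adjusted p under 0.05, and every level is in counts per 1000000 counts (CPM), scaled with the library's TMM factor.

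Library totals in EM were 35650262 to 38002511 counts, and a count of 0 in a library allows a level of up to 0.0794 to 0.0868 CPM (3 counts). Mitochondrially encoded genes took 2.94% to 3.68% of counts. Over the tested genes, Pearson's r of log2 CPM was 0.997 within apsMC706 and 0.996 within CTO19, and 0.849 to 0.852 between the lines, against 0.952 to 0.964 between EM and noEGF libraries of 1 line. Each value is over genes, which are not independent. More genes had a count in CTO19 (20632 and 20321) than in apsMC706 (19226 and 19088), at the totals above. The library kit does not mark strand, and the strand setting of the counting is not given in the sources used here, so a gene that overlaps another may share its reads. Among those named below this holds for Tfap2a, Pax9, Dsg2, Zbtb20, Mylk, Gata6, Tff1, Hoxa11, Ccnd2, Mdga2, Il1a, Igf2bp1, Mmp7, Ccnd1, Ccnd3 and Selenop, besides those whose partner is named in place.

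**Figure D1:**
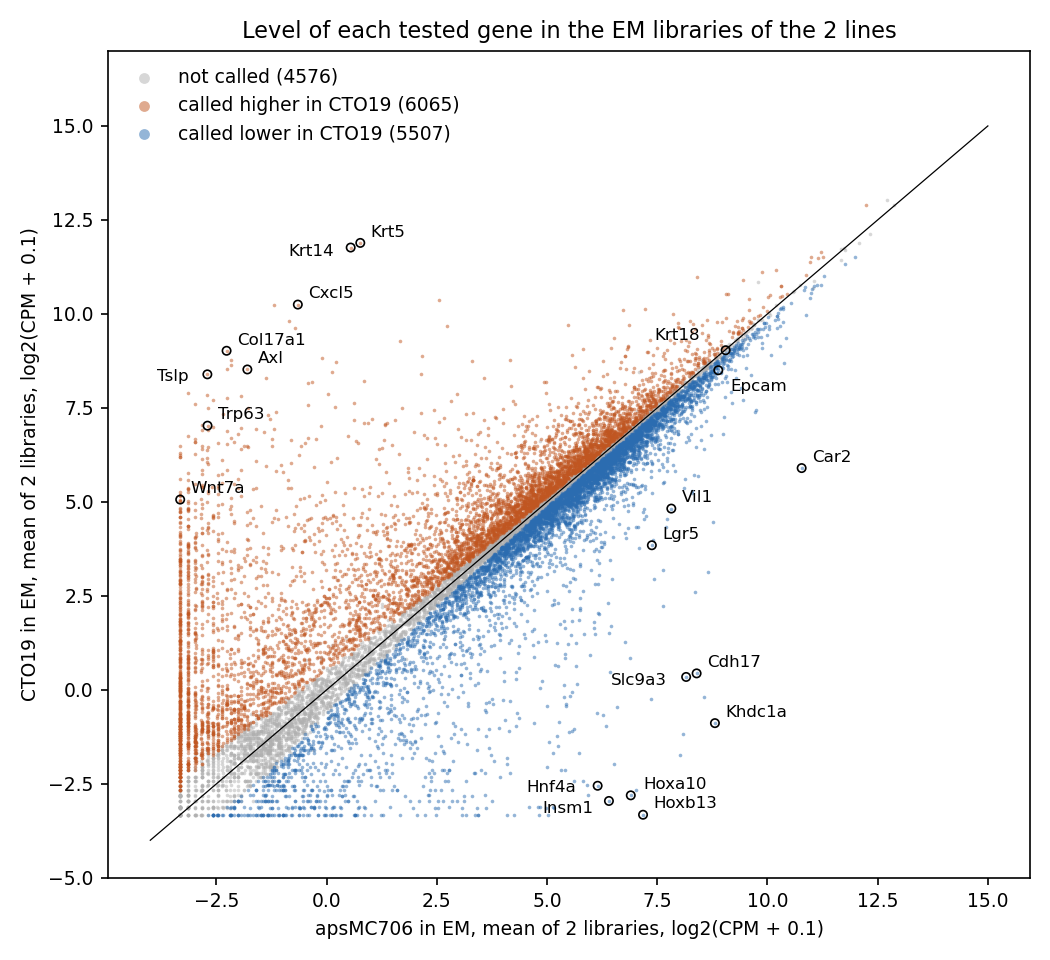
Level of each of 16148 tested genes in EM, as the mean of the 2 libraries of apsMC706 (x axis) and CTO19 (y axis), log2(CPM + 0.1); orange and blue points were called higher (6065) and lower (5507) in CTO19, grey points were not called (4576), and the line marks equal levels. Krt5, Krt14 and Cxcl5 stand far above the line, Hoxb13, Hnf4a and Cdh17 far below it, and Krt18 and Epcam close to it.

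The targeted genes were checked in every library. Apc, which restrains Wnt signalling, was at 191 and 198 CPM in apsMC706 and 68.8 and 59.8 in CTO19, 3.03-fold lower in CTO19 (a log2 fold change of -1.60 with SE 0.0543, adjusted p = 1.92e-12). Smad4, the common mediator of TGF-beta and BMP signals, was at 33.7 and 34.3 CPM in apsMC706 and 12.9 and 10.8 in CTO19, 2.88-fold lower. Trp53, which encodes p53, was at 16.4 and 13 CPM in apsMC706 and 33.3 and 28.4 in CTO19, 2.09-fold higher (log2 fold change 1.06, adjusted p = 2.58e-06). The lines did not overlap for any of the 3. A gene total does not show a small edit, so these values neither check nor contradict the knockout labels.

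The label "colon cancer organoids" was set against the markers of the tissue. Epithelial genes were abundant in both lines: the adhesion molecule Epcam was at 470.0 and 475 CPM in apsMC706 and 345 and 379.7 in CTO19, and E-cadherin (Cdh1) at 929 and 941 CPM in apsMC706 and 616 and 591 in CTO19. Both were modestly lower in CTO19 (log2 fold changes -0.38 and -0.63). Several defining genes of colon differentiation were at or near 0 in both lines, with Cdx1 at 1 count and the surface keratin Krt20 at 9 counts over the 4 libraries. Chga, of enteroendocrine cells, had 1 count, and Sox2, of stomach and oesophagus, had 3. Cdx2, the master factor of intestinal identity, was low, at 9.23 and 9.40 CPM in apsMC706 and 1.79 and 2.30 in CTO19 (4.53-fold lower in CTO19). apsMC706 held other intestinal genes, such as Hnf4a, Cdh17 and Car2, at high levels. In CTO19 Hnf4a had 1 and 4 counts and genes of squamous epithelium were abundant, so the markers go against the colon label for this line, which is called here by its name alone.

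**Figure D2:**
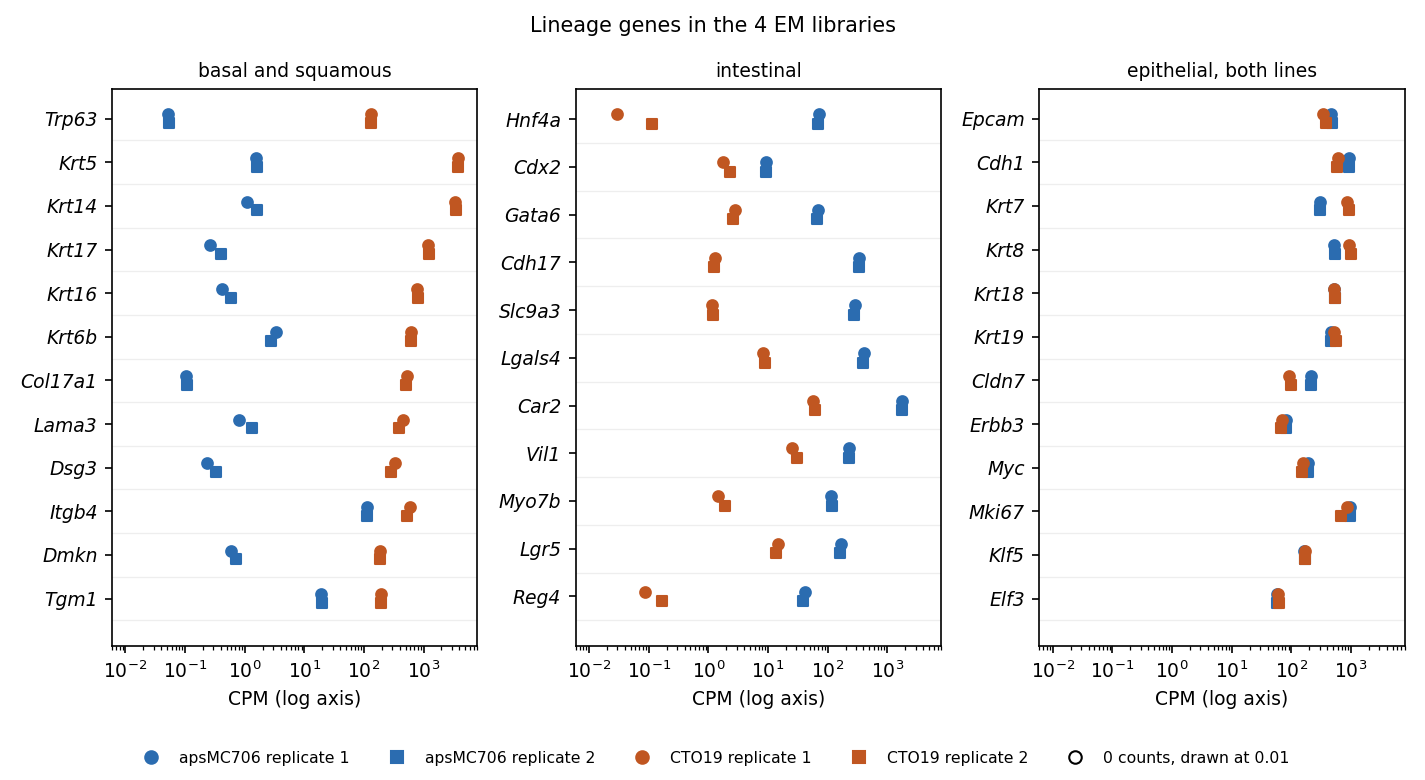
CPM (log axis) of 35 lineage genes in each EM library; blue marks are apsMC706, orange marks CTO19, circles replicate 1 and squares replicate 2. The basal and squamous genes of the left panel are higher in both CTO19 libraries, the intestinal genes of the middle panel are higher in both apsMC706 libraries, and the genes of the right panel differ by less than 3-fold between the lines.

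Basal keratins were high in CTO19 and near absent from apsMC706. Krt5, the type II keratin of basal cells (ENSMUSG00000061527, chromosome 15, 101707070 to 101712898 in mm10, minus strand), was at 1.56 and 1.63 CPM in apsMC706 and 3737 and 3847 in CTO19. Its partner Krt14 (ENSMUSG00000045545, chromosome 11, 100203162 to 100207548 in mm10, minus strand) was at 1.08 and 1.63 CPM in apsMC706 and 3428 and 3533 in CTO19. By CPM per kilobase of exon they ranked 12 (Krt14) and 13 (Krt5) among all tested genes in CTO19, and 11520 and 11592 in apsMC706. The log2 fold changes were 11.21 (SE 0.417, adjusted p = 1.74e-05) and 11.32 (SE 0.426, adjusted p = 1.84e-05). The 15 largest differences each way, here and below, are of called genes averaging a log2 CPM of 3 or more in EM. Of the other keratins among the 15 upward, Krt17, of basal and stressed epithelium, was at 0.265 and 0.409 CPM in apsMC706 and 1179 and 1223 in CTO19. Krt16, of activated keratinocytes, was at 0.423 and 0.599 CPM in apsMC706 and 772 and 803 in CTO19, and Krt90 at 0.556 and 0.354 CPM in apsMC706 and 896 and 917 in CTO19. Of 46 keratins listed, 39 were tested, and 27 of these were higher and 3 lower in CTO19 (median log2 fold change 1.61, or 1.31 with the members that had 0 counts in apsMC706 set at the floor of 3 counts per library). Genes enter the test through the group where they are high, so such counts describe the lists and are not set up as evidence on them. Each stands beside the 37.6% higher and 34.1% lower over all tested genes.

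The keratins of simple epithelium were abundant in both lines. Krt8 was at 524 and 535 CPM in apsMC706 and 913 and 989.9 in CTO19 (1.80-fold higher in CTO19), Krt7 at 304 and 302 CPM in apsMC706 and 874 and 921 in CTO19 (2.97-fold higher) and, named here after their values were seen, Krt18 at 524 and 538 CPM in apsMC706 and 513 and 535 in CTO19 (a log2 fold change of -0.02 with SE 0.0564, adjusted p = 0.792) and Krt19 at 458 and 471 CPM in apsMC706 and 526 and 555 in CTO19 (log2 fold change 0.22). CTO19 thus held both the basal pair and the columnar keratins, and whether they lay in the same cells cannot be read from bulk RNA. For every gene here, fewer cells of a type and less RNA per cell cannot be told apart.

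Windows before a RefSeq start of Krt5, Krt14 and Col17a1, 3 of the genes with the largest differences upward, are shown because these genes moved together between the lines. Each run holds the 250 bases before the RefSeq start nearest the annotated 5′ end (build GRCm38.p6), 5′ to 3′ on the gene's strand. They are chr15:101712906-101713155 on the minus strand for Krt5, chr11:100206031-100206280 on the minus strand for Krt14 and chr19:47692043-47692292 on the minus strand for Col17a1. The RefSeq start lies 7 bases from the annotated 5′ end of Krt5 and 52 from that of Col17a1. For Krt14 it lies 1518 bases inside the annotated gene, so that window falls within that gene. Capitals mark matches to any of 5 short motifs searched on both strands, the TATA box TATAAA, the AP-1 site TGANTCA, the NF-kB consensus site, a CDX site TTTATNG and an HNF4 site CAAAGTNCA.
Krt5: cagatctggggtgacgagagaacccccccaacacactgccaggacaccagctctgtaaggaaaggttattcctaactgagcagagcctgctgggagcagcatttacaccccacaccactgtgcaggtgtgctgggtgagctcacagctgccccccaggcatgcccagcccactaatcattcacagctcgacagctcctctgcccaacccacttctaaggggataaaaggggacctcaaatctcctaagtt
Krt14: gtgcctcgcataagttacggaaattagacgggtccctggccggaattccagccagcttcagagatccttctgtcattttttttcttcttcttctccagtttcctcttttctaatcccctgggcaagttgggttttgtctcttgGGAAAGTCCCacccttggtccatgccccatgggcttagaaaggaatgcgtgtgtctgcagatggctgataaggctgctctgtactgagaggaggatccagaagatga
Col17a1: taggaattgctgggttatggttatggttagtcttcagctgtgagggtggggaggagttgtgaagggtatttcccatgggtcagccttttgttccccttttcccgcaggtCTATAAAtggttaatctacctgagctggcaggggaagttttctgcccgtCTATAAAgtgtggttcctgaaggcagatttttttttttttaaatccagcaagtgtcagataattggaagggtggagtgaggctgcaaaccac

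The capitals in Krt14 are an NF-kB match on the reverse strand, and both runs of capitals in Col17a1 are TATA box matches that overlap a CDX match on the other strand. Among 17552 RefSeq promoter windows of this length, 12.2% held the TATA box, 6.36% the AP-1 site, 7.77% the NF-kB site, 9.3% the CDX site and 1.2% the HNF4 site. Of the 15 largest differences in each direction, 8 genes higher and 10 lower had a window. The TATA box and the CDX site were each in 2 of the 8 and 0 of the 10, the NF-kB site and the AP-1 site each in 1 and 1, and the HNF4 site in 0 and 0. A different spelling of the NF-kB site, searched before the consensus and not marked by capitals, was in 2 (Krt14 and Col17a1) and 0, and in 1.37% of all windows. A match is a run of letters and shows no binding, and no match says only that these letters are not in the window.

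Transcription factors of squamous epithelium were higher in CTO19 in the main. Trp63, which encodes p63, was at 130.1 and 131 CPM in CTO19 and had 2 and 2 counts in apsMC706, a ratio of 2428 (95% counting interval 948 to 8913, adjusted p = 5.71e-16). Tfap2a, an AP-2 factor of ectoderm, was at 10.7 and 9.83 CPM in apsMC706 and 80.6 and 75.3 in CTO19 (7.59-fold higher). Klf4, a factor of both gut and skin barrier cells, was at 69.1 and 67.2 CPM in apsMC706 and 218 and 222 in CTO19 (3.22-fold higher). Of the 24 factors listed 22 were tested, with 15 higher and 3 lower, the last being Barx2 (log2 fold change -2.71), Ovol2 (-0.53) and Prdm1 (-0.46). Pitx1, Pax9 and Zfp750, named after their values were seen, had 0 counts in both apsMC706 libraries and 581 and 581 counts (Pitx1), 219 and 212 (Pax9) and 658 and 566 (Zfp750) in CTO19. Klf5, which the list shares with the intestinal factors, was at 166 and 172 CPM in apsMC706 and 171 and 169 in CTO19, with overlapping libraries (log2 fold change 0.01, SE 0.0375).

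Genes that anchor basal cells were higher in CTO19. Col17a1, the transmembrane collagen of hemidesmosomes, was at 0.106 and 0.109 CPM in apsMC706 and 528 and 509 in CTO19. Its log2 fold change (12.19, SE 0.239, adjusted p = 1.93e-08) was the largest upward among named genes averaging a log2 CPM of 3 or more. Its ratio of 4831 has a counting interval of 2452 to 11191, since apsMC706 held 4 and 4 counts. Some genes averaging less had a larger log2 fold change, such as Fscn1 (13.78, with 0 and 1 counts in apsMC706). Lama3, a chain of laminin-332, was at 0.820 and 1.31 CPM in apsMC706 and 452 and 389 in CTO19 (395-fold higher), and Lamb3, its partner chain, at 82.6 and 81.0 CPM in apsMC706 and 340.5 and 338 in CTO19 (4.15-fold higher). Itgb4, the integrin chain of hemidesmosomes, was at 115 and 114 CPM in apsMC706 and 604 and 538 in CTO19 (5.0-fold higher). Of the 23 listed genes of hemidesmosomes and laminins 22 were tested, 20 were higher and 1, Itgb8, was lower (29 and 29 counts in apsMC706 and 0 in CTO19). Here a single component could be present in both lines and differ a few-fold, as Itgb4 did, or be nearly absent from apsMC706, as Col17a1 was.

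Genes of desmosomes, which join neighbouring cells, differed in both directions. Dsg3, the cadherin of basal layers, was at 0.238 and 0.327 CPM in apsMC706 and 336 and 289 in CTO19 (1097-fold higher), and Dsg1b, of upper layers, at 0.794 and 0.790 CPM in apsMC706 and 16.5 and 14.2 in CTO19 (19.3-fold higher). Dsg2, the cadherin of simple epithelium, went the other way, at 359 and 366 CPM in apsMC706 and 99.0 and 99.9 in CTO19 (3.65-fold lower). The plaque proteins Perp, Jup and Pkp1 were 4.77-fold, 3.32-fold and 3.72-fold higher, and Pkp2, of simple epithelium, 1.79-fold lower. All 16 listed genes were tested, of which 12 were higher and 4 lower. Of 21 tight junction genes tested 7 were higher and 11 lower. Cldn4 was at 44.4 and 41.3 CPM in apsMC706 and 181 and 189.6 in CTO19, and Cldn7 at 213 and 214 CPM in apsMC706 and 91.3 and 97.9 in CTO19.

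Genes of the cornified envelope, the protein shell of terminally differentiated squamous cells, were mostly higher in CTO19. All 52 listed genes were tested, 47 were higher and 4 lower, with a median log2 fold change of 6.00, or 4.87 with the 14 genes at 0 counts in apsMC706 set at the floor. Dmkn (dermokine) was at 0.582 and 0.708 CPM in apsMC706 and 188 and 189.8 in CTO19, Tgm1, the transglutaminase that cross-links the envelope, at 195 and 193 CPM in CTO19 (10-fold higher), and the protease Klk10 at 2.25 and 2.34 CPM in apsMC706 and 88.3 and 83.4 in CTO19. Spink5, a protease inhibitor of skin, had 2 and 3 counts in apsMC706 and reached 25.2 and 23.9 CPM in CTO19. Named after their values were seen, the late structural genes Ivl (10.7 and 10.6 CPM), Lor (24.5 and 30.5) and Flg (18.5 and 12.4) were low in CTO19 beside Krt5. Each was still called higher than in apsMC706, where Ivl had 5 and 8 counts and Flg 0 and 6. Lor was at 3.68 and 4.44 CPM in apsMC706 (6.78-fold higher in CTO19).
The 4 lower genes were Sprr2a1, Sprr2a2, Sprr2a3 and Sprr2b, near-identical copies among which reads cannot be assigned with certainty. They were abundant in both lines: Sprr2a2 was at 1302 and 1321 CPM in apsMC706 and 1082 and 1157 in CTO19 (log2 fold change -0.23, adjusted p = 0.00936, but 0.236 and 0.1 without CTO19 replicates 1 and 2). Without CTO19 replicate 1 the adjusted p was 0.28 for Sprr2a1, 0.0597 for Sprr2a3 and 0.0753 for Sprr2b, and for Sprr2a1 it was also 0.0609 without apsMC706 replicate 2 and 0.121 without CTO19 replicate 2. The summed level of the list, 3477 and 3530.0 CPM in apsMC706 and 4237 and 4321 in CTO19, differed less than its median gene.

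Downward, the 15 largest differences of genes averaging a log2 CPM of 3 or more included transport and adhesion genes of intestinal epithelium. Khdc1c had the largest of these (log2 fold change -10.32). Some genes averaging less differed more, such as Hoxa10 (-11.34), and are given below. Cdh17, the liver-intestine cadherin, was at 339 and 334 CPM in apsMC706 and 1.27 and 1.24 in CTO19 (267-fold lower, a log2 fold change of -8.06 with SE 0.213, adjusted p = 4.75e-07). Slc9a3, the sodium-proton exchanger of the brush border, was at 289 and 281 CPM in apsMC706 and 1.16 and 1.18 in CTO19 (243-fold lower, adjusted p = 0.000234). Lgals4, an intestinal galectin, was at 405 and 393 CPM in apsMC706 and 8.39 and 9.10 in CTO19 (45.6-fold lower). Myo7b, a motor of the brush border, was 68.5-fold lower, and Cftr, the chloride channel, at 87.3 and 85.3 CPM in apsMC706 and 1.33 and 1.24 in CTO19 (67.1-fold lower). The others of the 15 were Khdc1a (444 and 452 CPM in apsMC706 and 0.405 and 0.478 in CTO19) and its paralog Khdc1c (1277-fold lower), the glycosyltransferase B3gnt5 (784-fold), transferrin (Trf, 482-fold), the proton channel Otop1 (219.7-fold), the membrane protease Mmp14 (153-fold), the transcription factor Zbtb20 (54.9-fold), the cytokine receptor Lifr (46.7-fold), the selenium carrier Selenop (43.1-fold) and the kinase Mylk (35.1-fold). For all 15, both CTO19 libraries lay below both apsMC706 libraries, which the naming rule required.

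Transcription factors of the intestine were lower in CTO19 for 14 of 20 tested and higher for 4 (median log2 fold change -1.55). Hnf4a, which drives enterocyte genes, was at 71.6 and 70.0 CPM in apsMC706 and had 1 and 4 counts in CTO19, a ratio of 993 (counting interval 425 to 3060.3). Gata6, an endodermal factor, was at 70.3 and 66.4 CPM in apsMC706 and 2.78 and 2.61 in CTO19 (25.3-fold lower). Foxa1 was at 338 and 329 CPM in apsMC706 and 124 and 125 in CTO19 (2.68-fold lower). Vdr, the vitamin D receptor, was among the 4 higher, at 0.106 and 0.0817 CPM in apsMC706 and 32.0 and 29.3 in CTO19, as was Klf4.
The absorptive list held 29 tested genes, with 20 lower and 8 higher. Car2, a carbonic anhydrase of absorptive cells, was at 1762 and 1743 CPM in apsMC706 and 57.3 and 61.8 in CTO19 (29.4-fold lower), and villin (Vil1, which overlaps Usp37) at 226 and 226 CPM in apsMC706 and 25.8 and 30.6 in CTO19 (8.00-fold lower). Those higher in CTO19 were at low levels in some cases, such as the sugar transporter Slc5a1 (0.556 and 0.735 CPM in apsMC706 and 4.26 and 4.27 in CTO19).

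Genes of the crypt base were lower in CTO19 for 19 of 26 tested and higher for 6 (median log2 fold change -1.07). Lgr5, the receptor that marks intestinal stem cells, was at 169.5 and 163 CPM in apsMC706 and 15 and 13.5 in CTO19 (11.6-fold lower, SE of the log2 fold change 0.250, adjusted p = 0.000173). Ascl2, a factor of the same cells, was at 35.7 and 35.4 CPM in apsMC706 and 4.81 and 5.56 in CTO19 (6.85-fold lower). Igfbp4 was 126-fold, Prom1 4.93-fold, Tnfrsf19 4.65-fold and the ion transporter Slc12a2 3.24-fold lower. Cd44, a receptor found in crypts and in basal cells alike, went the other way, at 318 and 319 CPM in apsMC706 and 891 and 816 in CTO19 (2.68-fold higher).

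Of 24 goblet genes tested, 12 were lower and 9 higher in CTO19, against 34.1% lower and 37.6% higher over all genes. Agr2, a chaperone of mucin-making cells, was at 70.1 and 63.1 CPM in apsMC706 and 2.78 and 3.29 in CTO19 (21.9-fold lower), Creb3l1 at 40.3 and 36 CPM in apsMC706 and 0.232 and 0.281 in CTO19, and the trefoil peptide Tff3 at 5.48 and 5.77 CPM in apsMC706 with 1 and 1 counts in CTO19. Reg4, of deep crypt secretory cells, was at 42.0 and 38.1 CPM in apsMC706 and 0.0868 and 0.169 in CTO19, where it had 3 and 6 counts (ratio 312, counting interval 164 to 684). The gastric trefoil peptides Tff1 and Tff2 were higher in CTO19, with Tff1 at 5 and 3 counts in apsMC706 and 4.92 and 5.73 CPM in CTO19, and Tff2 at 1 and 0 counts and 4.28 and 5.03 CPM. Insm1, a factor of enteroendocrine and neuroendocrine cells, was at 85.4 and 83.7 CPM in apsMC706 and had 2 and 0 counts in CTO19, while the neuronal tubulin Tubb3 was at 0.397 and 0.245 CPM in apsMC706 and 98.5 and 104 in CTO19. Of the 31 listed enteroendocrine and neural genes 6 passed the filter, 3 higher and 2 lower, and of the Paneth and deep crypt list 8 did, 2 higher and 5 lower. Of the gastric list 12 did, 5 higher and 2 lower. Of 11 tuft cell genes tested 6 were higher and 2 lower. The kinase Dclk1 of tuft cells was 3.71-fold lower, and the prostaglandin synthase Ptgs1, which tuft cells share with other cells, was at 4.10 and 4.63 CPM in apsMC706 and 477 and 461 in CTO19 (107-fold higher).

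The Hox genes, which record position along the body axis, differed by cluster and by position within it. Of 11 Hoxa genes, all tested, 8 were lower in CTO19, 1 was higher and 2 were not called. Of 9 Hoxb genes tested, 8 were higher and 1 lower. The list of colon and hindgut position, to which most of these genes belong, had 9 higher and 11 lower of 23 tested. In the Hoxa cluster the posterior members were nearly silent in CTO19: Hoxa10 was at 120.2 and 118 CPM in apsMC706 and had 2 and 1 counts in CTO19, a ratio of 2789 (counting interval 954 to 13527). Hoxa9, which overlaps Mir196b, was at 95.6 and 89.1 CPM in apsMC706 and 0.145 and 0.169 in CTO19 (576-fold lower). Hoxa13, given like Hoxa11, Hoxa2 and Hoxa4 to complete the cluster and so outside the naming rule, was at 43.3 and 42.7 CPM in apsMC706 and 0.608 and 0.674 in CTO19, and Hoxa11 at 30.1 and 27.1 CPM in apsMC706 with 1 and 0 counts in CTO19.
In the Hoxb cluster the end member Hoxb13, a marker of hindgut and prostate, was at 146 and 143 CPM in apsMC706 and had 0 counts in both CTO19 libraries, at least 1691-fold lower (adjusted p = 6.43e-16). Its neighbours on the anterior side ran the other way. Hoxb9 was at 24.2 and 23.9 CPM in apsMC706 and 143 and 143 in CTO19 (5.93-fold higher), Hoxb8 at 1.01 and 1.14 CPM in apsMC706 and 74.5 and 68.2 in CTO19 (66.2-fold higher), Hoxb6 at 22.3 and 21.3 CPM in apsMC706 and 75.6 and 67.0 in CTO19 (3.27-fold higher) and Hoxb4 at 3.76 and 3.38 CPM in apsMC706 and 22.2 and 20.7 in CTO19 (6.01-fold higher). The 2 Hoxa genes not called were low in both lines. Hoxa2 was at 0.979 and 0.763 CPM in apsMC706 and 0.811 and 0.787 in CTO19, with overlapping libraries. Hoxa4 was at 0.741 and 0.953 CPM in apsMC706 and 0.955 and 1.18 in CTO19, without overlap (adjusted p = 0.255). No Hoxc gene of the 7 listed passed the filter on low counts, and of 9 Hoxd genes 2 did.

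**Figure D3:**
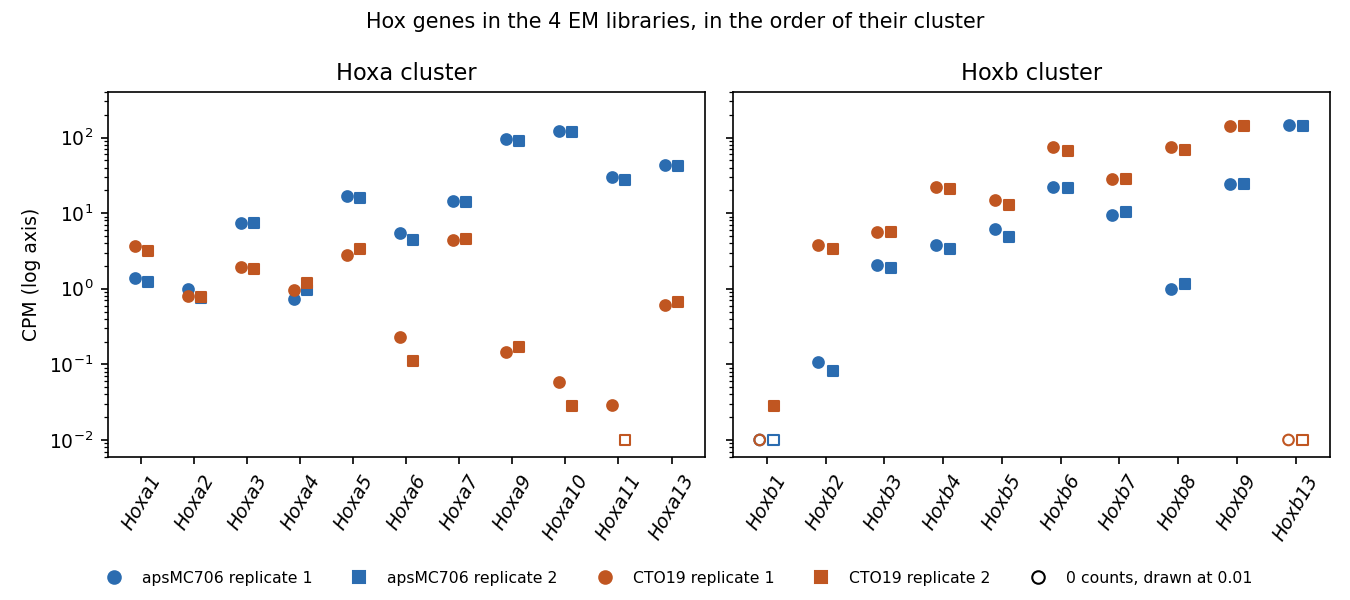
CPM (log axis) of the Hoxa and Hoxb genes in each EM library, ordered from the anterior to the posterior end of each cluster; blue is apsMC706, orange CTO19, circles replicate 1, squares replicate 2, and open marks are libraries with 0 counts drawn at 0.01. Hoxa9 to Hoxa13 and Hoxb13 are high in apsMC706 and at or near 0 in CTO19, and Hoxb2 to Hoxb9 are higher in CTO19.

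Some genes were on in 1 line and at 3 counts or fewer in each EM library of the other. There were 1026 called genes of this kind with apsMC706 as the silent line and 297 with CTO19. Of these 437 and 98 had 0 counts in both libraries of the silent line. By level, the first 8 on in CTO19 were Tslp, an epithelial cytokine (334 and 338 CPM, with 3 and 1 counts in apsMC706), the actin-bundling protein Fscn1 (236 and 237 CPM), Itpripl2 (231 and 226), Igfbp3, a carrier of insulin-like growth factors (213 and 205), the protease Htra1 (196 and 191), cyclin D2 (Ccnd2, 186 and 178), Prl2c5 (135 and 131) and Trp63. For Ccnd2 the ratio was 3385 (counting interval 1322 to 12427, adjusted p = 7.21e-18).
The first 8 on in apsMC706 were Hoxb13, Tnfrsf11b, a decoy receptor for RANKL (130.1 and 129.5 CPM, 3 and 1 counts in CTO19), Hoxa10, Insm1, the mast cell protease Cma1 (61.4 and 59.5 CPM), the factor Sp8 (57.1 and 61.9), Egflam (36 and 33.7) and the adhesion protein Mdga2 (35.3 and 36.1). The ratios of these 8, other than Hoxb13, ranged from 834 for Sp8 to 2966 for Insm1, each with a wide counting interval (821 to 24501 for Insm1).

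Other genes among the 15 largest upward differences were not keratin or anchoring genes. Cxcl5, a chemokine that draws neutrophils, was at 0.609 and 0.463 CPM in apsMC706 and 1199 and 1234 in CTO19 (2252-fold higher, log2 fold change 11.14, SE 0.120). Axl, a receptor tyrosine kinase, was at 0.212 and 0.163 CPM in apsMC706 and 367 and 368 in CTO19 (1922-fold higher). Aldh3a1, an aldehyde dehydrogenase of cornea and stomach, was at 0.926 and 0.735 CPM in apsMC706 and 448 and 467 in CTO19 (548-fold higher). Prl2c2 and Prl2c3, proliferin genes, were at 443 and 427 CPM (Prl2c2) and 406 and 388 CPM (Prl2c3) in CTO19 and each had 3 and 6 counts in apsMC706, and reads of these near-identical copies cannot be assigned with certainty. Gsta1 and Gsta2, a similar pair of glutathione transferases, were 415-fold and 474-fold higher.

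Cytokine and NF-kB genes were higher in CTO19 for 30 of 36 tested and lower for 2 (median log2 fold change 3.49). Il1a, an alarm cytokine of keratinocytes, was at 0.185 and 0.272 CPM in apsMC706 and 126 and 119.7 in CTO19 (530.4-fold higher). Nfkbia, a feedback inhibitor that NF-kB induces, was at 19.2 and 18.7 CPM in apsMC706 and 108 and 112 in CTO19 (5.80-fold higher), and Tnfaip3, another, at 4.15 and 4.14 CPM in apsMC706 and 61.2 and 57.8 in CTO19 (14.3-fold higher). Tnfaip2 was at 0.0794 and 0.136 CPM in apsMC706 and 214 and 220.1 in CTO19. The 2 lower genes were Sdc4 (1.74-fold) and Ccl25, an intestinal chemokine that overlaps Elavl1 (1.63-fold).

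Wnt pathway genes changed in both directions, with 26 higher and 16 lower of 43 tested. The ligand Wnt7a had 0 counts in both apsMC706 libraries and 33.3 and 33.3 CPM in CTO19, at least 413-fold higher, and Wnt10a was at 0.397 and 0.409 CPM in apsMC706 and 55.7 and 54.2 in CTO19 (135-fold higher). Wnt5a, Wnt4 and Wnt10b, named after their values were seen, were at 21.7 and 21.9 CPM (Wnt5a), 30.9 and 33.1 CPM (Wnt4) and 6.37 and 7.81 CPM (Wnt10b) in CTO19. In apsMC706 Wnt4 had 3 and 1 counts, and Wnt5a and Wnt10b had 0 in both libraries. Among the 16 lower were Rnf43, a ligase that removes Wnt receptors, at 229.9 and 236 CPM in apsMC706 and 82.8 and 84.2 in CTO19 (2.79-fold), and the receptors Fzd7 (5.37-fold) and Ephb2 (1.94-fold). Axin2, the general feedback gene of the pathway, named after its values were seen, was at 308 and 302 CPM in apsMC706 and 229 and 232 in CTO19 (a log2 fold change of -0.41, adjusted p = 0.000373, but 0.0581 and 0.05 without CTO19 replicates 1 and 2).

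For the EGF pathway, on which this medium acts, the receptor Egfr was at 14.6 and 15.1 CPM in apsMC706 and 81.3 and 66.1 in CTO19 (4.96-fold higher, a log2 fold change of 2.31 with SE 0.112, adjusted p = 2.77e-07). Its partners differed less, with Erbb2 (which overlaps Mien1) 1.40-fold higher and Erbb3 1.21-fold lower. Of the ligands, Tgfa was at 19.8 and 20.4 CPM in apsMC706 and 91.8 and 87.1 in CTO19 (4.45-fold higher), Areg at 2.57 and 2.23 CPM in apsMC706 and 25.9 and 24.6 in CTO19 (10.5-fold higher) and Hbegf 3.29-fold higher, while Btc was at 44.6 and 46.7 CPM in apsMC706 and 8.57 and 9.66 in CTO19 (5.0-fold lower). Epgn (epigen), named after its values were seen, was at 0.106 and 0.436 CPM in apsMC706 and 119 and 115 in CTO19. Of 30 genes that respond to ERK 12 were higher and 14 lower. Dusp7 was 9.61-fold and Emp1 7.14-fold higher, and the feedback genes Spry4, Etv5, Spry1 and Spred1 were 4.45-fold, 3.37-fold, 2.73-fold and 2.05-fold lower.

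In the BMP and TGF-beta list 30 of 44 tested genes were higher in CTO19 and 8 lower. Fst (follistatin, an antagonist of activins) had 1 and 3 counts in apsMC706 and reached 119 and 123 CPM in CTO19. Bmp7 was 5.16-fold, Bmp1, a protease, 25.4-fold and the receptor Tgfbr2 3.06-fold higher, and Id2, a target of BMP signals, was at 132 and 134 CPM in apsMC706 and 41.8 and 42.7 in CTO19 (3.14-fold lower). Notch genes were higher for 13 of 24 and lower for 8: the receptor Notch3 was at 0.212 and 0.191 CPM in apsMC706 and 27.6 and 27.1 in CTO19, the ligand Dll1 at 0.635 and 0.490 CPM in apsMC706 and 34.3 and 33.1 in CTO19, and Jag1 and Jag2 were 3.44-fold and 2.67-fold higher.

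Genes of fetal and regenerating gut epithelium, many of them YAP targets and many of them also found in squamous cells, were higher in CTO19 for 29 of 34 tested and lower for 4. Ly6a (Sca-1) was at 146 and 151 CPM in apsMC706 and 1076 and 1153 in CTO19 (7.51-fold higher), Anxa1 at 339.9 and 332 CPM in apsMC706 and 2010.1 and 2005 in CTO19 (5.97-fold higher) and the gap junction gene Gja1 at 9.5 and 9.89 CPM in apsMC706 and 419 and 442 in CTO19 (44.4-fold higher). Those lower were Cd55, Marcksl1, Ccn2 and F3 (3.64-fold, 1.74-fold, 1.95-fold and 1.11-fold), of which Ccn2 is a classical YAP target. Without 1 EM library the adjusted p of Ccn2 was 0.0883 to 0.131, and that of F3 was 0.0802 and 0.138 without apsMC706 replicates 1 and 2 and 0.176 without CTO19 replicate 1. Of 7 oncofetal genes tested 4 were higher and 2 lower. Hmga2, a chromatin protein of embryonic cells, was at 21.8 and 22.7 CPM in apsMC706 and 162 and 151 in CTO19 (7.04-fold higher), and Igf2bp1 was 3.47-fold lower while Igf2bp2 was 10.5-fold higher.

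Genes of the epithelial-mesenchymal state were higher for 17 of 30 tested and lower for 8. Vim (vimentin), the filament of mesenchymal cells, was at 174 and 170.1 CPM in apsMC706 and 7.35 and 7.87 in CTO19 (22.6-fold lower in CTO19). Snai2, a repressor of E-cadherin that basal cells also express, had 2 and 1 counts in apsMC706 and reached 72.0 and 69.6 CPM in CTO19, and the basal cadherin Cdh3 had 3 and 3 counts and was at 94.8 and 94.4 CPM. Matrix metalloproteinases differed by member. Of 20 tested with their inhibitors 12 were higher and 4 lower. Mmp13, a collagenase, had 2 and 4 counts in apsMC706 and reached 40.8 and 44.1 CPM in CTO19, Mmp3, a stromelysin, had 1 and 0 counts and was at 39.3 and 42.6 CPM, and Mmp14 and Mmp7 were 153-fold and 2.50-fold lower.

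Detoxification genes were higher for 37 of 60 tested and lower for 13. Nqo1, a quinone reductase induced through Nrf2, was at 9.82 and 10 CPM in apsMC706 and 163 and 164 in CTO19 (16.5-fold higher), and Gsto1 at 107 and 105 CPM in apsMC706 and 1105 and 1105 in CTO19 (10.4-fold higher), while Cyp1a1, a target of the aryl hydrocarbon receptor, was at 54.2 and 51.8 CPM in apsMC706 and 3.53 and 3.48 in CTO19 (15.1-fold lower). Of 13 S100 genes tested 10 were higher, such as S100a11 at 249 and 254 CPM in apsMC706 and 813 and 795 in CTO19, and 2 were lower. These were S100a1, at 8.04 and 8.47 CPM in apsMC706 and 1.97 and 1.99 in CTO19 (4.16-fold lower), and S100pbp, which encodes a binding partner of an S100 protein (1.34-fold lower).

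The median differences of the S phase and of the G2 and M phase lists were small, while some single genes of the cell cycle differed more. Of 51 genes of G2 and M phase 42 were lower in CTO19 and 4 higher, with a median log2 fold change of -0.42. Of 49 S phase genes 31 were lower and 7 higher (median -0.21). Mki67 was at 951 and 960.2 CPM in apsMC706 and 859.7 and 677 in CTO19 (a log2 fold change of -0.31 with SE 0.109, adjusted p = 0.0421). Its value rested on the CTO19 libraries, with a log2 fold change of -0.50 without replicate 1 and -0.16 without replicate 2. The call was lost with the EM libraries alone (adjusted p = 0.0707), without apsMC706 EM replicate 1 or 2 (0.0838 and 0.0944) and without CTO19 noEGF replicate 1 or 2 (0.114 and 0.112). Pcna, the sliding clamp of replication, was at 787 and 793 CPM in apsMC706 and 320.3 and 343 in CTO19 (2.38-fold lower). Myc was at 191 and 193 CPM in apsMC706 and 156 and 154 in CTO19 (log2 fold change -0.31). Of 30 G1 cyclins and cell cycle inhibitors 8 were higher and 13 lower. The D cyclins were higher, with Ccnd1 at 159.6 and 161 CPM in apsMC706 and 628 and 637 in CTO19 (3.94-fold higher) and Ccnd3 1.88-fold higher, beside Ccnd2 above. Of 39 targets of p53 tested 17 were higher and 15 lower (median log2 fold change 0.03), shares near the 37.6% and 34.1% of all genes. Phlda3 was at 11.8 and 12.1 CPM in apsMC706 and 82.2 and 95.2 in CTO19 (7.40-fold higher) and Bbc3 at 7.94 and 7.41 CPM in apsMC706 and 2.98 and 2.78 in CTO19 (2.66-fold lower).

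Several lists had a median log2 fold change close to 0, though the ribosomal protein genes that were called were mostly lower in CTO19. Cytosolic ribosomal protein genes had a median log2 fold change of -0.13 (5 higher, 31 lower of 52), cholesterol and fatty acid synthesis -0.04 (11 and 13 of 31), and MHC class I 0.05 (12 and 8 of 30). Of 35 genes of hypoxia and glycolysis 19 were higher and 11 lower (median 0.26). Of 13 mitochondrially encoded genes of the respiratory chain 11 were not called. The classical molecules H2-D1 and H2-K1, named after their values were seen, had log2 fold changes of 0.05 (SE 0.0394) and 0.0034 (SE 0.0434), whereas B2m was 2.36-fold higher and H2-Q2 11.9-fold lower. The interferon-stimulated list was not close to 0, with a median of 1.26. Of its 50 genes tested 25 were higher and 6 lower, while its summed level was lower in CTO19 (599 and 610.4 CPM, against 830.0 and 826). Ifitm3, an abundant member that blocks viral entry, was lower (314 and 314 CPM in apsMC706 and 177 and 182 in CTO19).

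Among imprinted genes 5 were higher and 8 lower of 17 tested. Plagl1, a growth regulator, had 0 counts in both apsMC706 libraries and 30.0 and 25.5 CPM in CTO19, and the RNA H19, which overlaps Mir675, had 1 and 2 counts and 17.1 and 18.8 CPM. Igf2, which lies beside it, had 0 counts in all 4 libraries. Kcnq1ot1, which overlaps Kcnq1, was at 11.3 and 12.8 CPM in apsMC706 and 0.753 and 0.618 in CTO19, and without strand its reads cannot be told from those of Kcnq1. Of 11 germline and early embryo genes tested 8 were higher and 1 lower. The Zscan4 genes of early embryos are near-identical copies, with Zscan4c at 12.3 and 11.9 CPM in apsMC706 and 56.0 and 49.5 in CTO19 (4.36-fold).

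**Figure D4:**
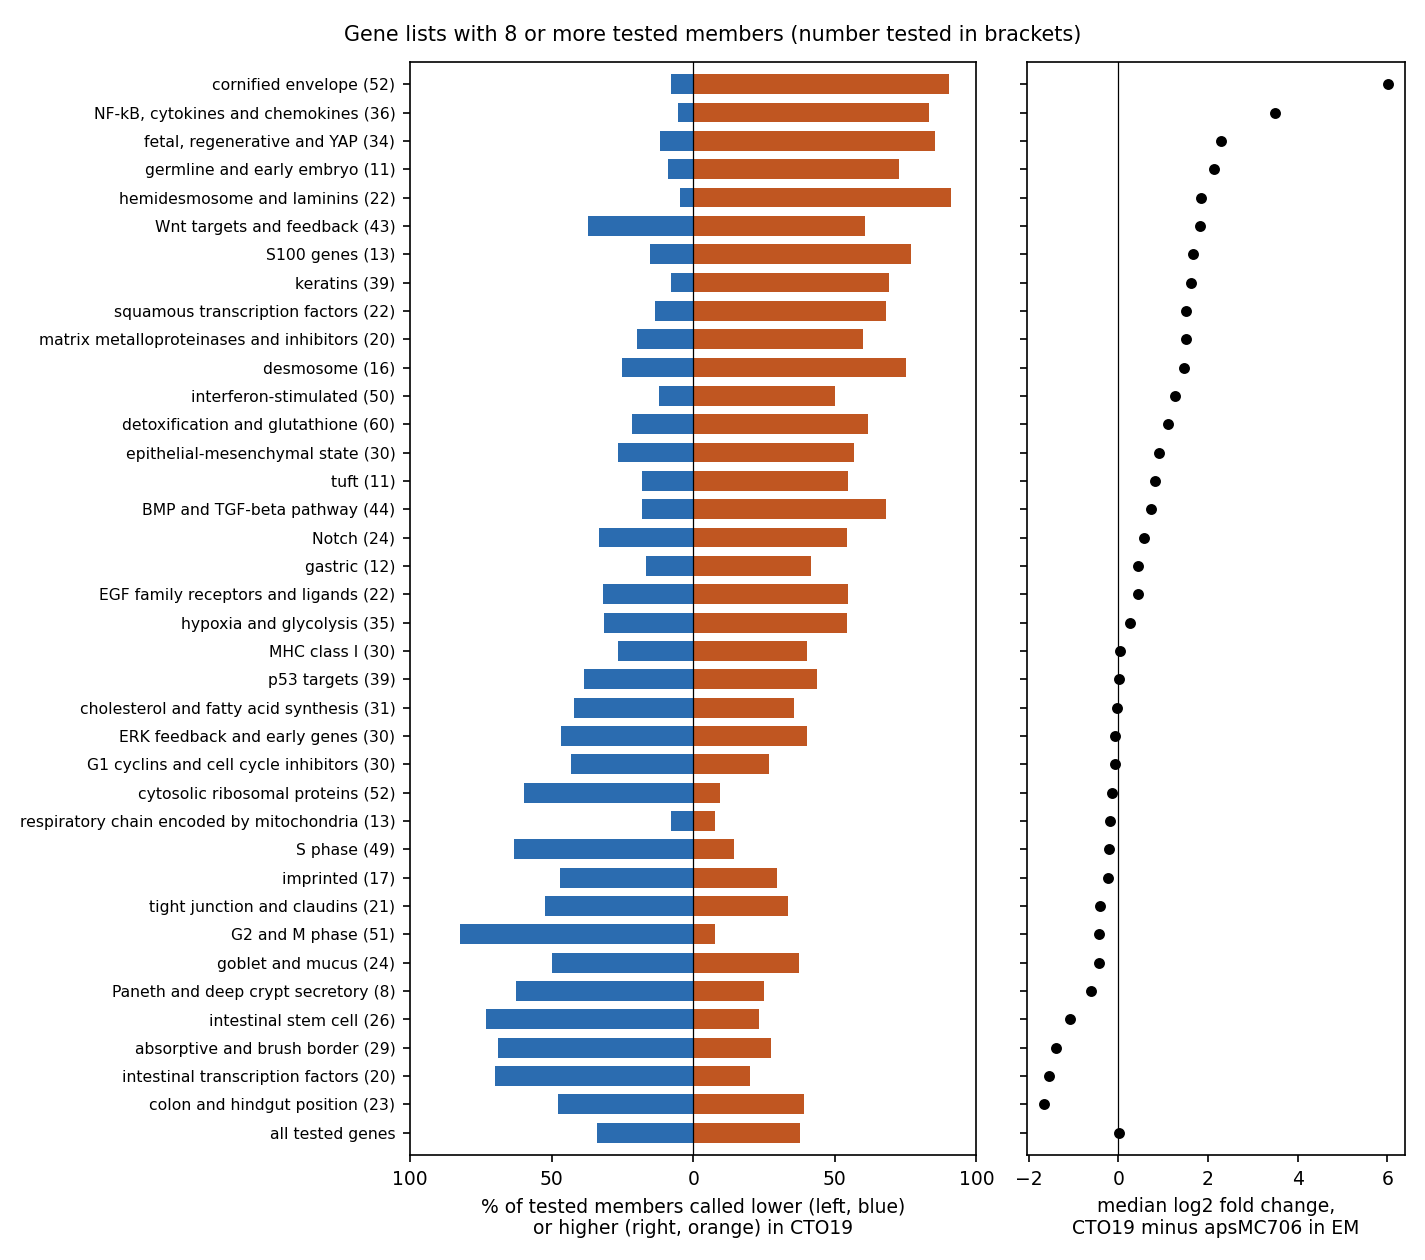
Gene lists with 8 or more tested members, ordered by their median log2 fold change; bars give the percent of tested members called higher (orange, to the right) or lower (blue, to the left) in CTO19, points the median log2 fold change (CTO19 minus apsMC706 in EM), and the bottom row all tested genes. The cornified envelope stands at the top with a median of 6.00. The lists of intestinal transcription factors and hindgut position stand lowest with -1.55 and -1.65 (the latter -0.88 with the EM libraries alone). The housekeeping lists lie near 0, S phase at -0.21 and G2 and M phase at -0.42, with 42 of 51 members of the last called lower.

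Markers of other cell types were low in both lines. The 12 fibroblast markers summed to 4.29 and 4.33 CPM in apsMC706 and 2.06 and 2.05 in CTO19, with Lum and Dpt at 0 counts in all 4 libraries. The 12 immune markers summed to 9.02 and 9.80 CPM and to 21.1 and 21.9, most of it from Cd14 (7.49 and 7.93 CPM in apsMC706 and 15 and 16.3 in CTO19), which epithelial cells also express, with Cd3e, Lyz2 and Tyrobp at 0 counts in all 4. The 13 autosomal endothelial, glial and muscle markers summed to at most 5.93 CPM in any EM library, with Emcn and Des at 0 counts. The part of such cells in the gene lists above was not tested.

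The line difference was measured again in the 4 noEGF libraries, which share no library with EM. The filter and each gene's estimate of the spread came from 1 fit of all 8 libraries, so calls in the 2 media are not independent. In noEGF 7401 genes were higher in CTO19 (45.8%) and 5544 lower (34.3%). Of the 6065 genes called higher in EM, 4867 were called higher in noEGF too, which is 80.2% of the EM list and 65.8% of the noEGF list. Of the 5507 called lower, 3608 were lower in both (65.5% and 65.1%). Among the 4654 genes called with at least a 2-fold difference in EM, 4048 were called in the same direction in noEGF (87.0%). The log2 fold change in noEGF was 9.95 for Krt5, 10.08 for Krt14, 9.68 for Col17a1, -5.75 for Cdh17, -5.64 for Slc9a3 and -3.82 for Lgr5. In noEGF the cornified envelope list had a median of 8.97 and the list of crypt base genes -0.51. The median rose to 4.40 for keratins (1.61 in EM) and 2.13 for squamous transcription factors (1.51 in EM). It shrank to -0.20 for intestinal transcription factors (-1.55 in EM) and 0.40 for hemidesmosomes and laminins (1.84 in EM). Medians that changed sign included goblet genes (-0.44 in EM, 0.47 in noEGF), S phase (-0.21 and 0.76) and G2 and M phase (-0.42 and 0.10). The 2 media also differ in days in culture, so a change of a line difference between them cannot be told apart from time.

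In the other direction, 1535 genes were called in both media with opposite signs. Among those named here, Foxa1 had a log2 fold change of -1.42 in EM and 0.40 in noEGF (adjusted p = 4.32e-12 for the difference of the line differences). Itga6, an integrin of basal cell anchoring that was named after its values were seen, had turned as well. It was at 365 and 365 CPM in apsMC706 and 747 and 697 in CTO19 in EM (1.98-fold higher), with a log2 fold change in noEGF of -0.84. Mki67 turned from -0.31 to 0.66.

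**Figure D5:**
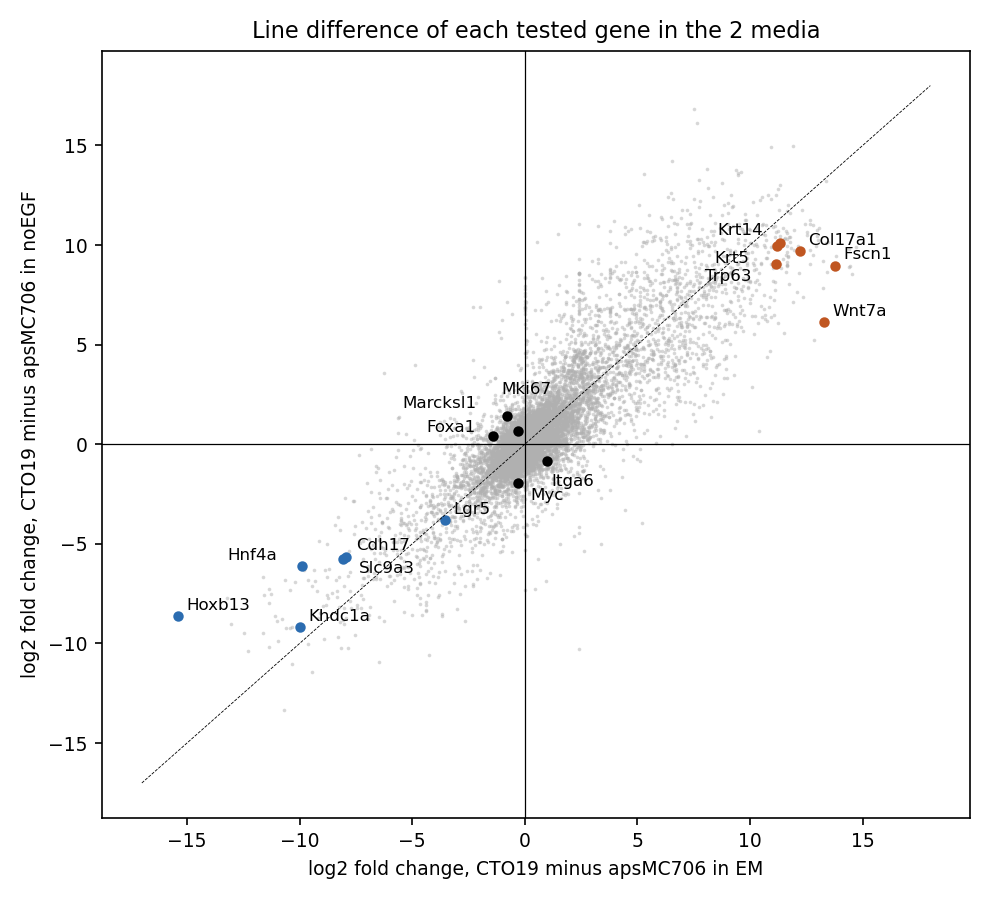
Log2 fold change between the lines (CTO19 minus apsMC706) of each tested gene in EM (x axis) and in noEGF (y axis); the dashed line marks equal differences, and labelled genes are coloured orange (higher in CTO19), blue (lower) or black (small or turning differences). Krt5, Krt14 and Col17a1 lie at 9 to 13 on both axes, Hnf4a, Cdh17 and Khdc1a are far below 0 on both, and Foxa1, Marcksl1 and Itga6 lie in the quadrants of opposite sign.

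By chromosome, the median log2 fold change of genes averaging a log2 CPM of 3 or more was -0.28 on chromosome 15 (399 genes) and -0.20 on chromosome 2 (794), the lowest, and 0.17 on chromosome 17 (496) and 0.11 on chromosome 16 (325), the highest, against -0.05 over all autosomes (9630 genes). On chromosome 17, 66.7% of these genes had a positive log2 fold change, and on chromosome 15 27.8%. Krt5, which was higher in CTO19, lies on chromosome 15, whose median was negative. These medians describe the 4 libraries and were not tested, and DNA copy number was not analysed here.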

How the data were processed

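Poly(A) RNA libraries of 2 lines in 2 media, 2 each, were compared. The deposited values are raw counts per gene; reads were aligned with STAR 2.7.0a to mm10, per the submitters' processing notes. Not given in the sources used here were the counting program, annotation release and filters. Positions and symbols came from the GENCODE annotation (GRCm38), and 48 of 32728 genes had no match. Column names were matched to samples by the description label.

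The 8 libraries were fitted with 1 mean per group in edgeR 4.0.16 (R 4.3.3; TMM, filterByExpr, robust quasi-likelihood F test, Benjamini-Hochberg adjustment over all 16719 genes passing the filter, 4 residual degrees of freedom). After fitting, 565 genes on X and Y and 6 without annotation were dropped. Adjusted p-values are of that test. Replicates of a line differed by more than sampling noise (chi-square per degree of freedom 3.21 and 9.74). Intervals and floors cover counting error only.

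Gene lists (42) and named genes were chosen with earlier results of these data known. Named were the 15 largest log2 fold changes each way among called genes averaging a log2 CPM of 3 or more and EM libraries of the lines that do not overlap, the 8 most abundant genes each way that were on in 1 line only, up to 4 called members each way per list, and a short list of markers. In simulated counts 58%, 78%, 88% and 98% of genes changed 1.25, 1.5, 2 and 4-fold were recovered for this comparison. These were 29, 39, 44 and 49 of 50 genes each. In all, 21 genes with no planted change were called as well. Alternatives covered scaling, filter, limma 3.58.1, DESeq2 1.42.0, libraries and threshold. Some genes the naming rule takes are not reported here.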

Additional observations from a re-analysis of the deposited data

Results flagged for a closer look

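Of 203 genes named here and tested in both media, the difference between the lines differed between EM and noEGF for 137 (edgeR's quasi-likelihood test of the difference of the differences, Benjamini-Hochberg adjusted p under 0.05). Over all 16148 genes tested the same test called 9077. Those named genes called in opposite directions in the media are given here, and they number 9. Over all genes, 1535 were called in opposite directions, with no condition on the test of the difference. Values are noEGF minus EM on the log2 scale. Genes lower in CTO19 in EM and higher in noEGF were Marcksl1, an actin regulator (2.20, adjusted p = 1.57e-10), the endodermal factor Foxa1 (1.82, adjusted p = 4.32e-12), the BMP target Id2 (1.82, adjusted p = 2.04e-11), the potassium channel Kcnq1 (1.23, adjusted p = 2.04e-09), the proliferation marker Mki67 (0.98, adjusted p = 0.00247), Ovol2 (0.86, adjusted p = 0.000361) and Prdm1 (0.74, adjusted p = 3.36e-05). Genes higher in EM and lower in noEGF were the EGF receptor ligand Hbegf (-1.95, adjusted p = 1.56e-10) and the integrin Itga6 (-1.83, adjusted p = 1.59e-11). Medium goes with days in culture, so these cannot be told apart.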

How the results depend on the processing

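Between the 20 alternatives run, the count of genes called was within 1.5 times the main count for all but a test against a fold of 1.5, which asks more of each gene and called 3491 higher and 1901 lower. The other settings called 5177 to 6407 higher and 4788 to 5729 lower. Leaving out each library in turn gave 5543 to 6217 higher and 4961 to 5698 lower. With a replicate block the counts were 6100 and 5538, and it changed neither count by over 1.5 times. Between the 2 lines in EM, the replicate 2 minus replicate 1 differences correlated at 0.0488 over 9645 genes. Over all pairs of groups the correlation was 0.0113 to 0.180. A low correlation does not show whether replicate numbers pair cultures, which the labels do not say. Of 4057 values for named genes, 3989 kept direction and side of the threshold, 49 fell out of the call, 5 entered it and 14 changed sign. Those that changed sign were genes not called. H2-K1 was at -0.00901 with DESeq2 size factors, -0.0184 with upper-quartile factors, -0.0090 with DESeq2's own test, and -0.0648 to 0.0649 with 1 library left out. With 1 library left out H2-D1 ran from -0.000628 to 0.102, Klf5 from -0.0182 to 0.0357, Krt18 from -0.0519 to 0.0116 and Hoxa2 from -0.295 to 0.0590. Klf5 was at -0.0088 with upper-quartile factors. The median of the 5 fibroblast markers tested changed sign. It fell from 2.62 to -4.14 with the stricter filter and -0.55 with the EM libraries alone, which test fewer genes. Of 168 list medians 40 others moved. Among those printed here, the move was over 1.5 times for colon and hindgut position (-0.88 with the EM libraries alone). It was also so for cholesterol synthesis (-0.058 with upper-quartile factors, -0.022 with the stricter filter). Some medians drawn in the plot of gene lists but not printed moved by over 1.5 times too. With the stricter filter the gastric median went from 0.45 to 5.17 (2.41 with the EM libraries alone). That filter also moved tuft genes from 0.81 to 1.54 and Paneth and deep crypt genes from -0.60 to -1.31. Medians that shrank with it were the epithelial-mesenchymal state (0.92 to 0.16) and Wnt genes (1.83 to 0.71). Chromosome medians were rerun over all tested genes only, not over the genes averaging a log2 CPM of 3 or more described above. Of these 76 medians 57 stayed, 17 moved and 2 changed sign. Those changing sign were of chromosome 4 (0.021 in the main run), at -0.000836 with upper-quartile factors and -0.00544 with the stricter filter. With upper-quartile factors the medians of chromosomes 2, 16 and 17 moved to -0.148, 0.151 and 0.164 (-0.126, 0.173 and 0.186 in the main run). The cause of the other moves was not tested. With 2 libraries a group, the counts of 0 to 3 leave wide intervals on the largest ratios.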
